A study of Mus musculus with 6 samples.

Results

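The cytochrome P450 enzymes and the glutathione transferases were examined in the cerebral cortex of mouse embryos that lack the active copy of Mest. The members were all probes whose annotated gene symbol begins with Cyp and a digit or with Gst and a lower-case letter. They stood for 80 genes of the 15063 named by probes with 1 symbol, and numbered 87 probes of 21766 without control spots. Of these, 64 probes were for P450s, 21 for glutathione transferases, and 2 carried several symbols and are left unnamed. Mutants were E12.5 embryos that had inherited from the father a LacZ-targeted Mest allele without exons 3 to 8. Mest, also called Peg1, is imprinted and is read from the paternal copy, so that these embryos have no intact active copy. The controls were E12.5 wild-type embryos, and neither strain nor sex was given in the sources used here. RNA of 1 single mutant cortex and 1 single wild-type cortex was hybridised on each of 6 two-colour arrays, with 6 mutants and 3 wild types, each wild type taken as used on 2 arrays.

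Cytochrome P450s are haem proteins that insert an oxygen atom into lipids, steroids, vitamins and foreign compounds, using electrons passed on by a reductase. Glutathione transferases join the tripeptide glutathione to reactive compounds, many of them made by P450s. Many members of both families are best known from adult liver, but some act in the embryo or the brain: Cyp26 enzymes degrade retinoic acid, Cyp51 works in cholesterol synthesis, and Gstp and Gstm enzymes are common outside the liver. The members were therefore split by name. There were 10 probes of embryo and brain genes (Cyp26, Cyp51, Gstp, Gstm), 12 probes of P450s of steroid, bile acid, vitamin D and brain sterol metabolism, and 49 probes of liver-type P450s (Cyp1 to Cyp4). The rest were 13 probes of other glutathione transferases, and Cyp20a1 alone. The split follows family names and no measured tissue. Its liver-type group also holds genes known from other tissues, such as Cyp2f2 of airway epithelium.

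The deposited values are ratios of the 2 dyes, so that the arrays compare mutant with wild type and give no level of a transcript. They were turned to log2 of mutant over wild type, and the median of each array was set to 0, so that every ratio is relative to the other probes of its array. The labels name the dye of each RNA but not which dye was divided by which, and that was taken from Mest being lower in the mutants. Its fitted log2 ratio of -1.59 (standard error 0.13, limma, adjusted p = 0.60), below 0 in 6 of 6 mutants, is therefore no independent check of the labels. The Cy5 arrays are those whose mutant RNA carried Cy5 (mutants 3, 5 and 6), and the Cy3 arrays those whose mutant RNA carried Cy3 (mutants 1, 4 and 7). Values for 6 mutants are given in that order. By their labels, mutants 5 and 4 shared wild type 8, and mutants 6 and 7 shared wild type 9. Mutants 3 and 1 were taken to share wild type 2. The share of probes measured ran from 75.4% (mutant 5) to 89.9%. A probe was tested if it had values on at least 4 arrays and on at least 2 in each dye orientation, which held for 17476 probes in all and for 76 of the 85 members. The 9 members below that limit were Cyp26a1, Gstm3, Gsta3, Cyp4a10, Cyp2c68, Cyp2d13, Cyp3a25 and 1 of 2 probes each for Cyp1a1 and Cyp2b13. The 2 unnamed probes are in no count below. Of them, 1 was above 0 on all 4 arrays measured (fitted log2 ratio 0.41, limma, unadjusted p = 0.041), none of these against wild type 8. The other had dye orientations of opposite sign.

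The start regions of 3 embryo and brain genes are shown because they carry letters to which regulators of these families are known to bind. The sequences are from RefSeq (GRCm38.p6), run from 250 bases before to 50 bases after an annotated start, and are written 5′ to 3′ on the strand of the gene. Capitals mark any match, on either strand, to TGACNNNGC (the core of the antioxidant response element), GCGTG (the core of the dioxin response element), AGGTCA or AGTTCA (nuclear receptor half-sites) or TGAGTCA (the AP-1 type site). Cyp26a1 is at chr19:37697558-37697857 on the + strand, Gstp1 at chr19:4037863-4038162 on the - strand and Gstm5 at chr3:107895604-107895903 on the + strand.
Cyp26a1: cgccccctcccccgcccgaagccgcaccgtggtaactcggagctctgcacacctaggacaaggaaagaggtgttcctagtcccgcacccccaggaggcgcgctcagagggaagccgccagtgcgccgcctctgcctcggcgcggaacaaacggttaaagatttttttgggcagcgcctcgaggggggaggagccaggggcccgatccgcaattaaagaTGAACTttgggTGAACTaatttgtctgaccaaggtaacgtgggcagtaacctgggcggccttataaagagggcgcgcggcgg
Gstp1: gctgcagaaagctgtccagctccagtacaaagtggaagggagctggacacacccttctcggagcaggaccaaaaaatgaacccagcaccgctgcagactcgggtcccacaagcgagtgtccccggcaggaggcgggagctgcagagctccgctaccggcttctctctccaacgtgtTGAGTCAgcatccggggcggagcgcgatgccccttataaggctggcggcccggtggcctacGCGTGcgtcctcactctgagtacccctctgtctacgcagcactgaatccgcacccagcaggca
Gstm5: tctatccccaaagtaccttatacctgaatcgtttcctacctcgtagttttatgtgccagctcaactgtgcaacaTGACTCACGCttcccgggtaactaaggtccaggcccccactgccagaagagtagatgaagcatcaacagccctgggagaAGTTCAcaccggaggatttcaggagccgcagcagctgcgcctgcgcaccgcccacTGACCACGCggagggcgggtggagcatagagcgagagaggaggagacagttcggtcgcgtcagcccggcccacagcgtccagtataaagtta
In Cyp26a1 the half-site AGTTCA occurs as a pair on the opposite strand with 5 bases between, at -32 and -21 from the start. Receptors for retinoic acid are known to bind repeats with this spacing. A pair of AGTTCA with any 5 bases between was present in 8 of all 32851 promoters in the table (0.0244%), Cyp26a1 included. Repeats of AGGTCA or of mixed half-sites were not counted. This is therefore the share of 1 exact pattern and not of all repeats with this spacing. Gstp1 holds TGAGTCA at -74, as do 5.20% of all promoters. Gstm5 holds TGACNNNGC at -42, overlapping a GCGTG match at -38. It has another GCGTG match at -171, AGTTCA at -97 and TGAGTCA at -176.

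Promoters were found for 63 of the 80 member genes, 78 in all. TGACNNNGC lay in 3 of the 28 promoters of glutathione transferases (10.7%) and in 12.4% of all promoters. GCGTG lay in 10 of 50 P450 promoters (20.0%) and in 32.4% of all. AGGTCA lay in 13 of 41 promoters of liver-type P450s (31.7%) and in 16.3% of all, and AGTTCA in 4 of the 41 (9.76%) and in 14% of all. In the embryo and brain genes and in the other transferases AGGTCA lay in 6.67% each. Over all 78 member promoters the shares were 8.97%, 21.8%, 20.5% and 10.3% for the 4 patterns in this order. Some genes have several promoters and many are near relatives in a row, so that the promoters are not independent. These are matches of letters and not sites, and the arrays say nothing of binding.

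Among the embryo and brain genes, none passed the test (limma, adjusted p under 0.05, as for 0% of all tested probes). Of the 8 tested 7 lay slightly below 0, which turned to above 0 when the arrays were not centred or were centred on the Gapdh control spots. Cyp26a1, which clears retinoic acid from embryonic tissue, had a value on only 3 arrays and was not tested. It had 1.27 in mutant 5, 0.44 in mutant 6 and -0.50 in mutant 1, so that both Cy5 values were above 0 and the Cy3 value below. Cyp51, which removes a methyl group from lanosterol on the way to cholesterol, had 0.079, 0.26, -0.39, -0.053, 0.054 and 0.21. Its values lay on both sides of 0 in both dye orientations, with a fitted log2 ratio of 0.026 (95% confidence interval -0.30 to 0.35). Scale and quantile normalization gave Cyp51 a ratio below 0.

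Gstp1 encodes the pi-class transferase, and near-identical copies of the gene may share its probe. It had -0.43, -0.16, -0.19, -0.004, 0.18 and -0.24, below 0 in 5 of 6 mutants, with a fitted log2 ratio of -0.14 (standard error 0.10) that was -0.0783 without the array of mutant 7. Gstm1, a mu-class enzyme, had -0.57, -0.34, -0.23, 0.044, 0.005 and -0.33. All Cy5 values were below 0 and the Cy3 values mixed, and the fitted log2 ratio was -0.24 (standard error 0.11, limma, adjusted p = 0.90). Gstm5, a mu-class enzyme known from brain and testis, was the member measured most evenly, with -0.13, -0.21, -0.10, -0.10, -0.31 and -0.11. It was below 0 in 6 of 6 mutants, and its fitted log2 ratio was -0.16 (standard error 0.076, limma, adjusted p = 0.90). A fitted ratio of this size is a level 1.12-fold lower. Gstm2 lay near 0 on every array, between -0.22 and 0.061, with a fitted log2 ratio of -0.047 (standard error 0.079).

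The other mu-class genes varied far more from array to array. Gstm4 had -0.81, 0.89, -0.22, 0.29, -0.64 and 0.25, and Gstm7 ranged from -0.695 to 0.37, so that neither had a direction. Gstm6 had 0.17, 2.04 and 0.32 on the Cy5 arrays, and -1.26 and -0.49 on those of mutants 1 and 4. Its dye orientations did not overlap, which makes the fitted ratio of -0.046 a balance of opposite values. Gstm3 had values in mutants 6, 4 and 7 only, of 0.066, 0.42 and 0.43. All 7 Gstm genes of the mouse are on the array and they are near relatives lying together in the genome, so that a probe may take up RNA of another member. That was not tested.

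Without centring, or with the Gapdh control spots set to 0, the median of all tested probes moved to 0.26 and 0.27, and Gstm1, Gstm2, Gstm4, Gstm5, Gstm6, Gstm7 and Gstp1 all lay above 0. All of them still lay below that median.

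**Figure D1:**
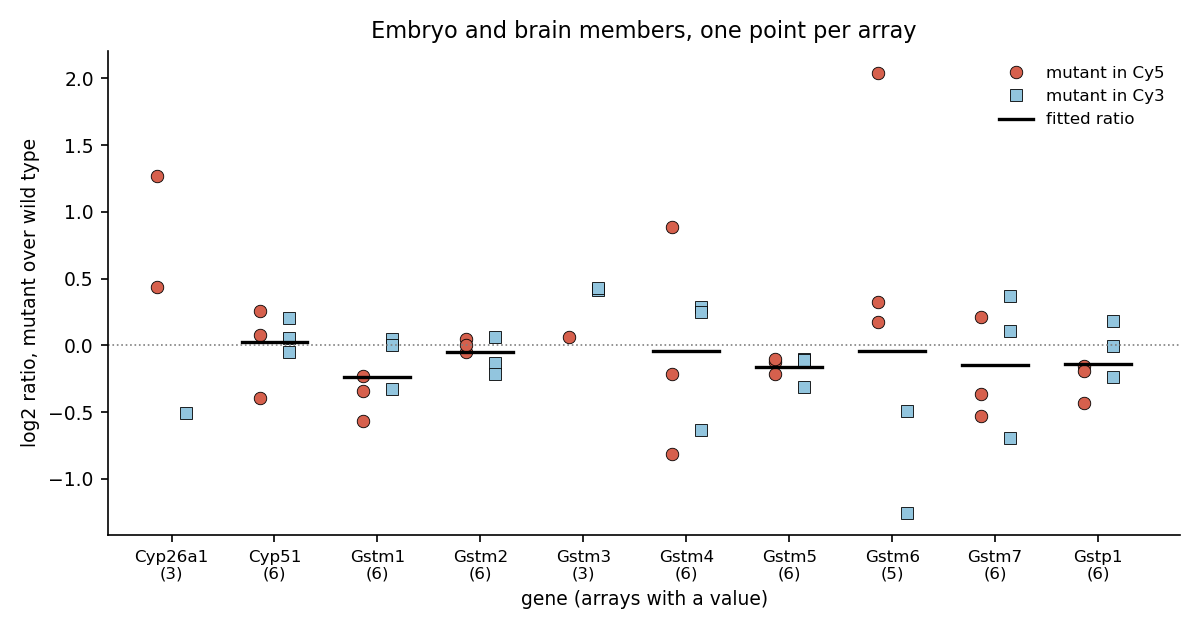
Log2 ratio of mutant over wild type for the 10 embryo and brain genes, 1 point per array, with circles for Cy5 arrays, squares for Cy3 arrays and a black bar for the fitted ratio where the gene was tested. Gstm2 and Gstm5 stay within 0.35 of 0 on every array, whereas Gstm6 spans -1.26 to 2.04.

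Of the P450s of steroid, bile acid, vitamin D and brain sterol metabolism none passed the test either, with 5 of 12 above and 7 below 0. Cyp46a1, the enzyme by which neurons turn cholesterol into a form that can leave the brain, had 0.34, -0.015, -0.029, 0.21, -0.097 and 0.35, with a fitted log2 ratio of 0.13 (standard error 0.11) that was 0.0637 without the array of mutant 7. Cyp39a1, which acts on the same product, was above 0 in 5 of 6 mutants with 0.81, 0.36, 0.18, -0.015, 0.094 and 0.62. Its fitted log2 ratio was 0.34 (standard error 0.16, limma, adjusted p = 0.90), and 0.215 without the array of mutant 7. Cyp46a1, Cyp39a1 and 4 genes given below (Gsto1, Gsta4, Gstk1 and Cyp2c29) were picked after their values were seen.

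The vitamin D genes had fitted log2 ratios of -0.018 (Cyp24a1) and -0.019 (Cyp27b1). Cyp24a1, which inactivates the hormone, lay between -0.013 and 0.062 on 5 arrays and at -0.27 in mutant 1. Cyp27b1, which makes the hormone, ranged from -0.42 to 0.35. Cyp8b1 of bile acid synthesis ranged from -0.025 to 0.21. Cyp27a1 ranged from -0.19 to 0.19 on 5 arrays and had 1.004 in mutant 5.

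Other steroid genes differed between the dye orientations. Cyp21a1, an adrenal enzyme of corticosteroid synthesis, had -0.84, -1.86 and -1.84 on the Cy5 arrays, whereas the Cy3 arrays gave 1.37, 0.65 and 2.39. Cyp7b1, an oxysterol hydroxylase, had -0.89, -1.29 and -0.45 on the former, then 0.32, 0.085 and 0.78. Cyp17a1, needed for androgen synthesis, had -0.54, -0.49 and -0.27, then 0.24, 0.17 and 0.10. In these genes the orientations did not overlap and were of opposite sign, so that each fitted ratio is a mean of opposite values. Cyp11b2, the aldosterone synthase, had 1.44 and 1.25 in mutants 3 and 6, then 0.020 and -3.78 in mutants 1 and 7. Cyp7a1 of bile acid synthesis ranged from -1.05 to 0.43, and Cyp11a1, which starts steroid synthesis, from -0.485 to 0.60.

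Among the other glutathione transferases, 4 of 12 tested lay above and 8 below 0, and none passed. Gsto1, an omega-class enzyme, had 0.11, 0.24, -0.032, 0.28, 0.27 and 0.25. It was above 0 in 5 of 6 mutants with a fitted log2 ratio of 0.19 (standard error 0.078, limma, adjusted p = 0.90). Gsta4, which detoxifies products of lipid oxidation, had -0.395, -0.14, 0.019, -0.20, -0.12 and -0.20. Its fitted log2 ratio was -0.17 (standard error 0.091), and it lay above 0 without centring. Gstk1, a kappa-class enzyme of mitochondria and peroxisomes, had -0.44, 0.15, 0.009, -0.50, -0.12 and -0.90, with a fitted log2 ratio of -0.30 (standard error 0.15). It was -0.191 without the array of mutant 7 and -0.0485 without centring.

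Gstt1, Gstt2 and Gstz1 stayed near 0, with fitted log2 ratios of -0.057, -0.065 and 0.015. The last had 0.042, 0.34 and 0.079 on the Cy5 arrays, whereas the Cy3 arrays gave -0.19, -0.049 and -0.14. Gsta1 and Gsta2, alpha-class genes of high sequence similarity, followed each other over the arrays. Gsta1 had 1.05 and 0.48 in mutants 3 and 6 against -0.73, -0.36 and -4.93 in mutants 1, 4 and 7. Gsta2 had 1.23 and 0.78 against -0.85, -0.67 and -3.33 in the same mutants. Neither had a value in mutant 5, and in both the dye orientations did not overlap. The remaining members were widely spread. Gstt3 ranged from -2.92 to 0.011, Gstt4 from -1.33 to 5.43, Gsto2 from -5.33 to 0.75 and Gstcd from -0.36 to 1.46, while Gsta3 had values of -0.35, -0.17 and -2.67 in mutants 6, 1 and 7 only.

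Of the liver-type P450s, 21 of 43 tested probes lay above and 22 below 0, with fitted log2 ratios from -1.29 to 0.92, and none passed after adjustment. Cyp3a44, of the family that breaks down steroids and drugs, was the only member with an unadjusted p under 0.05. It had -2.48 and -1.57 in mutants 3 and 6 against -0.004 and -1.13 in mutants 1 and 7, with no value in mutants 5 and 4. All 4 values were below 0, that of mutant 1 by almost nothing. Mutants 5 and 4 shared wild type 8, so that Cyp3a44 has no comparison with that wild type. The fitted log2 ratio was -1.29 (standard error 0.37, limma, unadjusted p = 0.034, adjusted p = 0.90). The Cyp2s1 gene, a P450 of epithelia, was also below 0 on all 4 arrays with a value. It had -0.20 and -0.060 in mutants 3 and 6 against -1.33 and -0.365 in mutants 1 and 7, and also lacked wild type 8. Its fitted log2 ratio was -0.49 (standard error 0.23, limma, adjusted p = 0.90).

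Cyp4a14, a fatty acid hydroxylase, was above 0 in 6 of 6 mutants with 0.15, 0.42, 0.015, 0.30, 0.23 and 0.19. Its fitted log2 ratio was 0.22 (standard error 0.091, limma, adjusted p = 0.90), a level 1.16-fold higher. Cyp2c29, a drug-metabolising enzyme, had -0.41, -0.58, -0.11, 0.025, -0.31 and -0.25, with a fitted log2 ratio of -0.27 (standard error 0.11, limma, adjusted p = 0.90) that was -0.0203 without centring. The Cyp1 genes, which the dioxin receptor controls, were poorly measured. Cyp1a2 ranged from -1.23 to 1.59, Cyp1b1 from -2.78 to 1.15, and the tested Cyp1a1 probe from -3.07 to 3.87. Cyp2e1, the ethanol-inducible enzyme, lay between -0.16 and 0.28 on 5 arrays and at -1.12 in mutant 5. In the Cyp2b and Cyp2c subfamilies no probe moved one way throughout. Cyp2b9 ranged from -0.63 to 1.82, Cyp2b10 from -0.50 to 0.935, Cyp2c39 from -0.38 to 0.32 and Cyp2c65 from -3.03 to 2.58. Cyp2u1, a widely expressed fatty acid hydroxylase, ranged from -2.59 to 0.25, with a fitted log2 ratio of -0.69 (standard error 0.41). Cyp2f2, known from airway epithelium, was among the evenest, from -0.091 to 0.25.

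The single member outside these groups, Cyp20a1, a P450 of unknown substrate, had -8.08 in mutant 3 and between -0.35 and 1.56 on the other arrays.

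Where both probes of a member gene were tested, their fitted ratios were of opposite sign, but each 95% confidence interval included 0. For Cyp2j5 the probes had fitted log2 ratios of 0.13 and -0.075 (standard errors 0.098 and 0.10). Cyp2d22 had 0.074 and -0.43 (0.11 and 0.40), and Cyp4f15 had -0.24 and 0.094 (0.12 and 0.47). One Cyp4f15 probe ranged from -0.56 to 0.15 and the other from -2.12 to 1.14. Of 78 member genes that are protein-coding in the gene table, 49 have a gene of the same subfamily as next neighbour, 32 of them liver-type P450s. Such genes are near relatives, and which RNA a probe took up was not determined here.

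Over all members, 0 of 76 passed an adjusted p of 0.05 in limma, where 0% of all 17476 probes did. At an unadjusted p under 0.05 there was 1 member, Cyp3a44, which was lower, where 3.93% of all tested probes passed (2.33% lower and 1.6% higher). Values of 1 sign on every array measured were found for 4 members (5.26%), against 5.57% of all tested probes. Gstm5, Cyp3a44 and Cyp2s1 were lower, as were 3.12% of all, and Cyp4a14 was higher, as were 2.44%. These shares do not set the members apart from the background. Cyp3a44 and Cyp2s1 had values on only 4 arrays, where 1 sign throughout is reached more easily than on 6. In all, 31 members lay above and 45 below 0 relative to the array medians, but 62 above and 14 below without centring. The median fitted log2 ratio was -0.094 in the embryo and brain genes, -0.019 in the steroid group, -0.0076 in the liver-type P450s and -0.12 in the other transferases, against 0.0069 over all tested probes. Averaged over the tested probes with a value on each array, the embryo and brain group had -0.080 ± 0.22 (SD, n = 6 arrays) and the steroid group 0.0096 ± 0.18. The liver-type P450s had -0.00015 ± 0.16 and the other transferases -0.18 ± 0.58. Arrays shared wild types, so that the 6 values of a group are not independent. Each mean lay within 1 SD of 0, which does not show that nothing changed. The mean fitted ratio of the other transferases, -0.157, was 0.118 without centring. It was 0.259 on the Cy5 arrays alone and -0.662 on the Cy3 arrays alone. The last mean also takes in Gsta3 (-1.42 on these arrays), which was not in the main test. The 95% confidence interval lay inside -1 to 1 for 48 of 76 members (63.2%), as for 70.9% of all tested probes. For the others the interval reached a doubling or a halving.

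**Figure D2:**
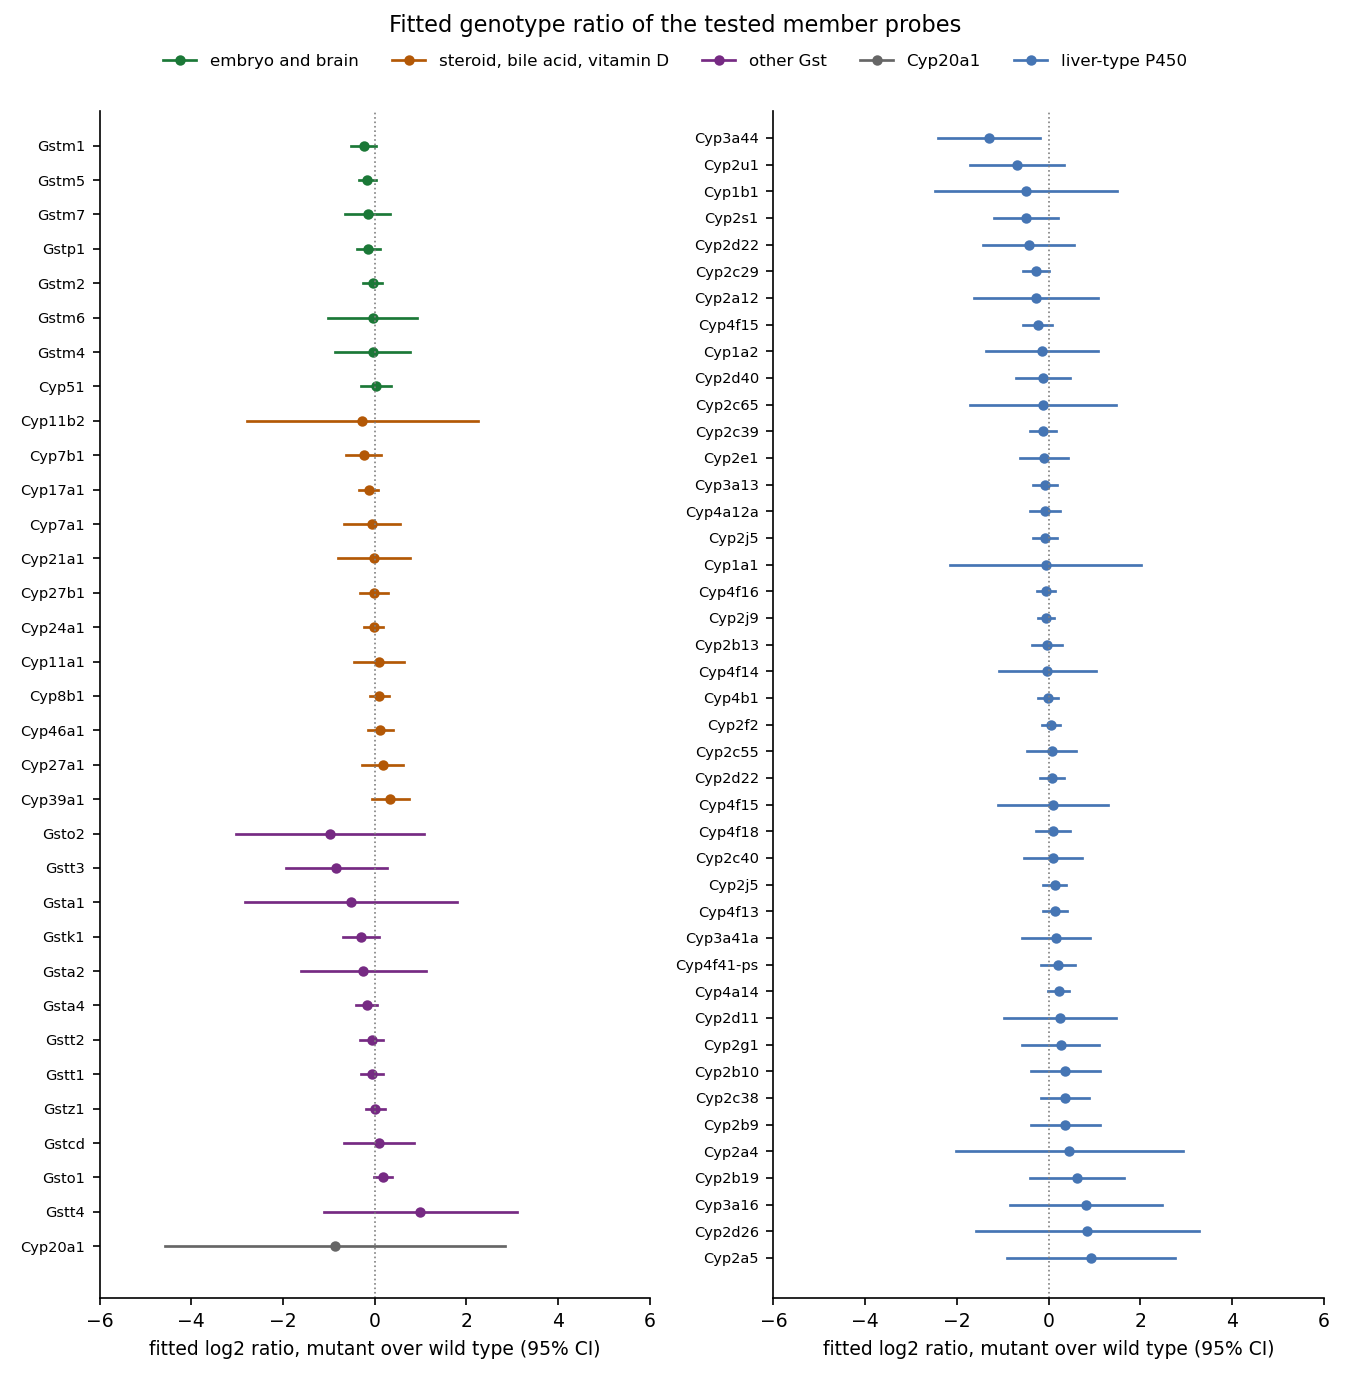
Fitted log2 ratio of mutant over wild type with its 95% confidence interval for the 76 tested member probes, coloured by group, with the liver-type P450s in the right panel. The interval of Cyp3a44 is the only one that leaves out 0, and intervals are narrow for Gstm2 and Gstm5 and wide for Cyp20a1 and Gsto2.

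The presence of a value did not set the liver-type genes apart. It was present for 86.7% of the possible values of liver-type P450s, 88.3% in embryo and brain genes, 95.8% in the steroid group and 93.6% in the other transferases, against 84.1% over all probes. The files give no signal level and the filter that removed values is not given in the sources used here. Whether a liver-type gene was expressed could therefore not be told from these data. On the array of mutant 5, 65 of 85 members had a value, against 75 to 82 on the other arrays.

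The spread between arrays differed between the groups. The median SD over arrays was 0.23 for the tested embryo and brain genes, 0.37 for the steroid group, 0.54 for the other transferases and 0.65 for the liver-type P450s, against 0.41 for all tested probes. Over the probes with values on all arrays it was 0.23, 0.334, 0.303 and 0.491 in the same order, against 0.315 for all, so that the other transferases then lay below all probes. Without centring it was 0.485, 0.449, 0.788 and 0.861, against 0.59, and the steroid group had the smallest. An SD over 1 was found in 16 of 43 liver-type P450 probes (37.2%), 5 of 12 other transferases (41.7%), 2 of 12 of the steroid group (16.7%) and 1 of 8 embryo and brain genes, against 22.8% of all tested probes. Within the liver-type genes the families were unlike. The 10 tested Cyp4 probes had a median SD of 0.26, whereas it was 0.73 for 26 Cyp2 probes, 1.09 for 4 Cyp3 probes and 1.47 for 3 Cyp1 probes. Among the evenest were Cyp4f16, with -0.033, -0.24, -0.066, -0.088, 0.014 and 0.035, and Cyp4b1, with values from -0.16 to 0.23. These are descriptions with no test, and signal level, which can set the spread of a ratio, was not available for a comparison.

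**Figure D3:**
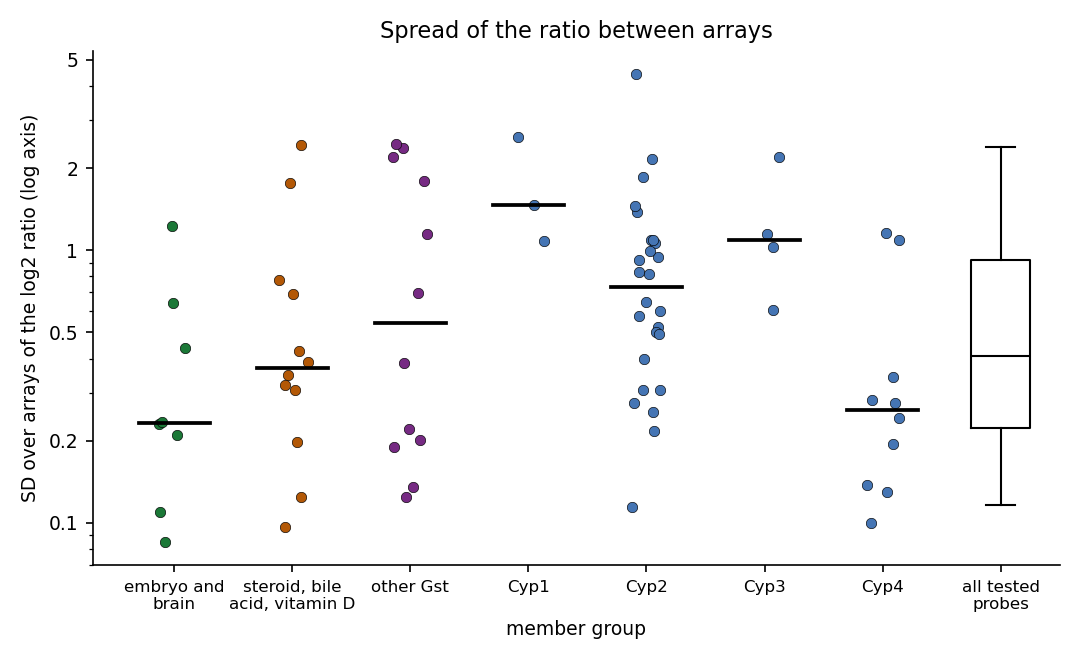
SD over arrays of the log2 ratio for each tested member probe (log axis) by group, with black bars for medians and a box for all tested probes (median, quartiles, and whiskers from the 5th to the 95th percentile). Embryo and brain genes and the Cyp4 family have medians of 0.23 and 0.26, below the 0.41 of all probes, and Cyp1, Cyp2 and Cyp3 lie above it.

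Many of these ratios differed with the dye orientation, at shares near those of all tested probes. In 26 of 76 members (34.2%) the Cy5 and Cy3 arrays did not overlap, against 29.7% of all tested probes. In 14 members (18.4%) the orientations were also of opposite sign, against 14.5% of all. The 4 tested Cyp3 probes were all among the 26 and none of the 10 Cyp4 probes was. Values on all arrays were present for 2 of these Cyp3 probes and for 9 of these Cyp4 probes. Fewer values fall apart by orientation more easily, so that the 2 families are not compared on equal terms. Cyp2j9 had -0.54, -0.49 and -0.50 on the Cy5 arrays, whereas the Cy3 arrays gave 0.33, 0.38 and 0.50, so that values repeated closely within an orientation and turned sign between them. Its dye term, the difference between orientations, was -0.91 (standard error 0.11, limma, adjusted p = 0.064), the smallest dye p among members. Cyp3a13 had -0.46, -0.92 and -0.43, then 0.45, 0.37 and 0.52. Cyp2c38 had -0.19, -0.275 and -0.37, then 0.61, 1.79 and 0.63. Cyp2d26 was the most extreme, with -0.86 and -4.60 in mutants 3 and 5 against 4.95 and 3.87 in mutants 1 and 4, and Cyp3a16 ran the other way, with 4.06 and 0.86 in mutants 3 and 6, then -1.50, -0.36 and -0.87. No member passed the adjusted threshold for the dye term, where 0.269% of all tested probes did, and 17 of 76 had an unadjusted p under 0.05 for it, where 20.0% of all did.

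**Figure D4:**
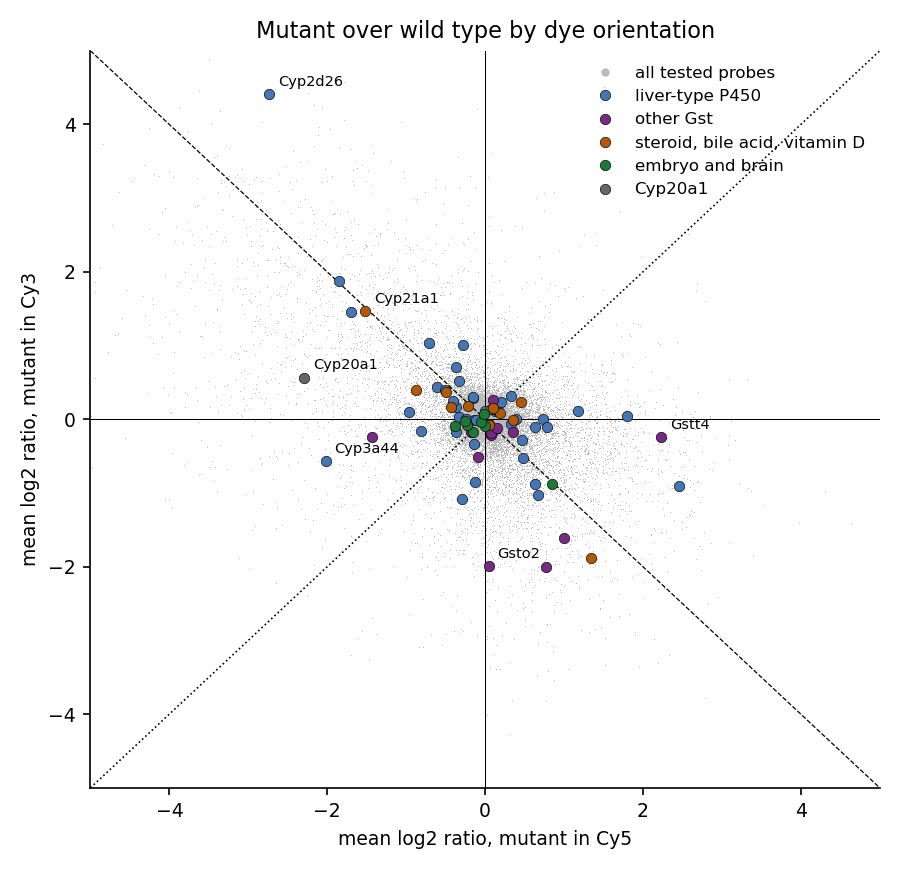
Mean log2 ratio of mutant over wild type over the Cy5 arrays (horizontal axis) and over the Cy3 arrays (vertical axis) for the member probes (coloured) and all tested probes (grey dots, 10 of which lie outside the plotted range of -5 to 5). Equal ratios in both orientations fall along the dotted line and opposite ratios along the dashed line, on which Cyp21a1 lies. Cyp2d26 is far out, at -2.73 and 4.41. Embryo and brain genes crowd near the origin except Gstm6.

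Genes that work with the members were taken from lists by function, and by limma none of their probes had an unadjusted p under 0.05, and so none an adjusted one. Among 12 probes for partners of P450s and for haem metabolism, 5 lay above and 7 below 0 (median -0.059). Blvra, which turns biliverdin into bilirubin, had -0.13 (standard error 0.080), and Pgrmc2, a haem-binding membrane protein, had -0.22 (standard error 0.15). Among 18 probes for glutathione synthesis and use, 7 lay above and 11 below 0 (median -0.091). Gpx3, a secreted glutathione peroxidase, had -0.21 (standard error 0.097), and Mgst3, a microsomal transferase, had -0.17 (standard error 0.085).

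Among 20 probes for regulators of these families, 11 lay above and 9 below 0 (median 0.033). Rxra, the partner of many nuclear receptors, had 0.18, 0.20, 0.21, 0.14, 0.18 and 0.11. It was above 0 in 6 of 6 mutants with a spread of 0.039 (SD) and a fitted log2 ratio of 0.17 (standard error 0.069, limma, adjusted p = 0.90). Pparg, a receptor for fatty acids, had 0.19 (standard error 0.088). Around Cyp26a1, 20 probes for retinoic acid handling gave 11 above and 9 below 0 (median 0.016). Aldh1a7, an aldehyde dehydrogenase close to the retinal-oxidising Aldh1a1, had -0.19 (standard error 0.081) and was below 0 in 6 of 6 mutants. By the evenest of 5 tested probes, the retinoic acid receptor gene Rara had 0.17 (standard error 0.081), above 0 in 6 of 6, but its other probes ran from -0.35 to 0.46. Around Cyp51, 14 probes for sterol steps gave 6 above and 8 below 0 (median -0.026), with Mvd at -0.32 (standard error 0.20) and Nsdhl, which acts shortly after Cyp51, at 0.077 (standard error 0.091).

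Markers of liver, the tissue from which the liver-type genes are best known, did not move together. Of 12 tested probes 6 lay above and 6 below 0 (median -0.042), with the serum protein genes Alb at 0.069, Afp at 0.011 and Ahsg at -0.59 (standard error 0.27). The 10 probes of cortical marker genes had values on all arrays and a median SD of 0.19, with 5 above and 5 below 0, Pax6, of the progenitors, at 0.13 and -0.036 by its 2 probes and Tbr1, of young neurons, at -0.13. Of markers of cells that a dissected cortex could carry along, 4 of 7 endothelial probes, 4 of 6 of meninges and mesenchyme and 1 of 4 of choroid plexus lay above 0, and none had an unadjusted p under 0.05. The lowest were Esam of endothelium at -0.43 and Ttr of choroid plexus at -0.34. Their part in the members' ratios was not tested. Ratios cannot show whether these markers are present in both samples. In whole cortex, fewer cells of a type and less RNA per cell cannot be told apart.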

How the data were processed

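The submitters deposited log2 ratios of 6 two-colour oligonucleotide arrays, 1 value per probe. Per the labels' protocols, Trizol served for RNA extraction. The steps from scan to ratio are not stated in these sources. The deposited log2 values were read as Cy5 over Cy3 from their range and from Mest. Values at the ceiling of 16.61 (590) were treated as missing, and 232 control spots were left out of the tests.

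The sign was set to mutant over wild type, and array medians were subtracted. The model (limma 3.58.1, R 4.3.3, lmFit and eBayes) had an intercept for genotype, a dye term and the shared wild type as a random block (correlation 0.25), with Benjamini-Hochberg adjustment over all 17476 tested probes. The wild type of array 1, labelled 1, is not among those the design lists (2, 8 and 9) and was read as 2. The fit was also run on data simulated from its own variances, dye terms and block correlation, with no missing values. Such a run cannot show how the fit does on the deposited ratios. Gene names are from the platform annotation. All 80 member genes matched the gene table of GRCm38.p6 by Entrez identifier, with symbols the same. Members and lists were chosen with earlier results of these data known. Named genes were all embryo and brain members, in each other group up to 4 per direction with the smallest p among those of 1 sign on every array, and 2 per list of partner genes. Other members, those shown by range or by dye orientation included, and the marker genes given beyond 2 a list were picked after their values were seen. Alternatives covered block, dye term, centring, normalization, missing values, moderation, single arrays and single orientations. The precision is limited by the number of arrays. The p-values reflect the spread between single embryos and hybridisations.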

Additional observations from a re-analysis of the deposited data

Results flagged for a closer look

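In 9 of 78 member probes with at least 4 values, 1 array lay further from the rest than Dixon's 95% limit, a share of 11.5%. The same held for 1620 of 18074 probes on the array (8.96%). The limit is set for about 1 in 20 among independent, normally distributed values. These ratios still held dye differences and came from arrays that shared wild types, so that the share by chance is not known here. The array of mutant 3 was the one standing apart in 4 of the 9, and in 21.3% of the 1620. In mutant 3, Cyp20a1 had -8.076 (others from -0.349 to 1.558), Cyp2b19 had 2.255 (others from -0.195 to 0.513), Gstcd had 1.458 (others from -0.363 to 0.137), and Cyp2d22 had -2.516 by 1 of its 2 probes (others from -0.400 to 0.525). In mutant 5, Cyp27a1 had 1.004 (others from -0.187 to 0.189) and Cyp2e1 had -1.119 (others from -0.155 to 0.276). In mutant 1, Gsto2 had -5.326 (others from -0.627 to 0.751) and Cyp24a1 had -0.267 (others from -0.013 to 0.062). In mutant 6, Cyp4f15 had -2.121 by 1 of its 2 probes (others from -0.027 to 1.139).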

How the results depend on the processing

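No probe passed an adjusted p of 0.05 for genotype under any of 19 alternatives. An unadjusted p under 0.05 (limma) was reported for 1 of 76 members and 687 of all 17476 tested probes. The number of members was 6 without the block for the shared wild type (all probes 1119), 7 without the dye term (1073) and 0 without centring (223). It was 11 centred on Gapdh (2761), 2 with scale (793) and 4 with quantile normalization (786). Of the probes measured on all arrays it was 3 of 57 (604 of 13531). It was 10 of 79 on the Cy5 arrays alone (1537 of 18844) and 10 of 79 on the Cy3 arrays alone (2038 of 18699). With 1 array left out it was 0 to 2 (350 to 834). Cyp3a44 was then tested only where the omitted array had no value for it. Probes past the adjusted threshold for the dye term, 47 as reported, numbered 1 without the block, 658 without centring, 10 centred on Gapdh, 176 with scale and 150 with quantile normalization, 135 with values on all arrays, 2 with no minimum number of arrays, 31 with ceiling values kept, and 0 to 26 with 1 array left out. Members among them, 0 as reported, were 4 without centring, 2 with scale and 1 with quantile normalization, and 2 of those on all arrays.

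Without centring and centred on Gapdh, the median of all probes moved from 0.0069 to 0.26 and 0.265, and 62 of 76 members lay above 0. The group means became 0.154 and 0.161 (embryo and brain), 0.236 and 0.26 (steroid group), 0.28 and 0.282 (liver-type P450s), and 0.118 and 0.092 (other transferases, below 0 as reported). The median SD of embryo and brain genes without centring was 0.485. Under these 2 settings, in this order, ratios turned from below to above 0 for Gstm1 (0.017, 0.0254), Gstm2 (0.205, 0.213), Gstm4 (0.213, 0.221), Gstm5 (0.091, 0.0994), Gstm6 (0.21, 0.212), Gstm7 (0.104, 0.113), Gstp1 (0.113, 0.121) and Gsta4 (0.0813, 0.0897). Cyp51 turned below 0 with scale (-0.0158) and quantile normalization (-0.0214) and on the Cy5 arrays alone (-0.0175). On the Cy5 arrays alone Gstm2 had 0.00117 and Gstm6 0.847, and without the dye term Gstm6 had 0.156. With 1 array left out, the sign turned for Cyp51 (-0.0499 to 0.136), Gstm4 (-0.274 to 0.177) and Gstm6 (-0.312 to 0.117). Without 1 array, ratios that kept their sign moved by over 1.5 times for Gstm2 (-0.0864 to -0.0169), Gstm7 (-0.257 to -0.00735), Gstp1 (-0.189 to -0.0783), Cyp39a1 (0.215 to 0.454), Cyp46a1 (0.0637 to 0.188) and Gstk1 (-0.397 to -0.191), each lowest in size without the array of mutant 7. Without centring and centred on Gapdh, Cyp2c29 had -0.0203 and -0.0119 in place of -0.273, and Gstk1 to -0.0485 and -0.0401 in place of -0.301. The causes were not tested. The unadjusted calls over all probes split into 179 higher and 44 lower without centring, and 2671 and 90 centred on Gapdh, against 280 and 407 as reported. Signal over background is not given, so that weak spots cannot be told from strong ones.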
